A study of Mus musculus with 8 samples.

Results

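Sox2 and its relatives of the SOX gene family were followed through 8 samples of mouse E14TG2a embryonic stem cells, in which total RNA had been sequenced. The genes were chosen by name from a list of 9 (Sox1, Sox2, Sox3, Sox4, Sox11, Sox12, Sox13, Sox15 and Sox21), by pairing the Ensembl identifiers of the deposited tables with gene symbols. Of these 9, 8 were found among the 17152 identifiers that were used, and Sox1 was not analysed here. The cells, of strain 129/Ola at passages 3 to 6, were grown on gelatin without feeder cells in serum with leukaemia inhibitory factor and with CHIR99021 and PD0325901, which inhibit GSK3 and MEK. The comparison was of wild-type cells (WT) with E1-KO, E2-KO and E3-KO cells, in each of which an enhancer had been knocked out with CRISPR/Cas9, and all 4 groups had the same medium and 2 biological replicates. The labels used here give neither the place of the enhancers nor the number of clones behind each line, so a difference from WT cannot be told apart from a difference of clone or culture. The study's stated interest was how pairings of promoters and enhancers bear on Sox2, and the question put to the SOX genes here was whether any of them was higher where Sox2 was lower.

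SOX proteins are transcription factors that bind DNA through a shared high mobility group (HMG) box and usually act beside a partner protein. In embryonic stem cells SOX2 binds next to OCT4 (the product of Pou5f1) at composite sites in the enhancers of pluripotency genes, including its own. SOX2 belongs with SOX1 and SOX3 to subgroup B1, whose members can stand in for each other in neural progenitors, whereas SOX21 is a repressor of subgroup B2, SOX4, SOX11 and SOX12 form subgroup C, SOX13 belongs to subgroup D, and SOX15 is the sole member of subgroup G.

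Values are FPKM, fragments scaled by transcript length and library size, so levels can be set side by side between genes. The total of the deposited values lay between 454974 and 532007 per sample and does not tell the number of reads. Judged from the most common ratio between low values of a sample and of WT replicate 1, depth relative to that replicate was roughly 0.785 to 1.01. The extremes were the E3-KO pair. All 8 embryonic stem cell markers of a fixed list (among them Pou5f1, Nanog and Esrrb) were at 1 FPKM or more in every group. Their summed level per sample was 2585 to 2666 FPKM in WT, 2386 to 2472 (E1-KO), 2511 to 2650 (E2-KO) and 2107 to 2374 (E3-KO). Of 8 fibroblast markers at most 1 reached a group mean of 1 FPKM. Averaging at least 1 FPKM were 10936 genes, over which libraries of a group correlated at 0.985 to 0.994 (log2 values) and libraries of unlike groups at 0.941 to 0.983. Of the 8 SOX genes, 5 passed this filter (Sox2, Sox4, Sox12, Sox13 and Sox15) and were tested, and 3 (Sox3, Sox11 and Sox21) lay below it and are described apart. Differences are given as log2(FPKM + 1), a scale on which changes of low genes come out too small. Tests used limma with an intensity trend across all tested genes, and calls were made at adjusted p-values (Benjamini-Hochberg) under 0.05.

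Sox2 dominated the family in these cells. In WT it stood at 131 and 136 FPKM, while the other 4 tested genes had WT means between 7.70 FPKM (Sox4) and 11.9 FPKM (Sox15). In E1-KO 3 of the 5 tested SOX genes were called against WT, with Sox2 and Sox13 lower and Sox12 higher, where 38.2% of all tested genes were called (15.0% higher and 23.1% lower). In E2-KO 2 of 5 were called, Sox2 and Sox13, both lower, against 36.3% of all tested genes (14.2% higher and 22.1% lower). In E3-KO 2 of 5 were called, Sox2 and Sox4, both lower, against 44.7% of all tested genes (13.8% higher and 30.9% lower). Sox12 in E1-KO was thus the one rise among the tested SOX genes, and no tested SOX gene other than Sox2 was called against WT in all 3 knockouts. The 5 SOX genes had a median difference from WT of -0.32 (E1-KO), -0.43 (E2-KO) and -0.33 (E3-KO), beside -0.064, -0.077 and -0.151 over all tested genes. The direction of the calls over all genes moved with the scaling. In E3-KO against WT 31.0% of the called genes were higher, and 49.8% with median-ratio scaling or 48.1% with quantile normalization. For E2-KO the share was 39.1%, and 50.4% with median-ratio scaling. With scaling that left out the 50 highest genes the lower calls stayed in excess, with 37.8% higher in E3-KO and 33.3% in E2-KO.

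**Figure D1:**
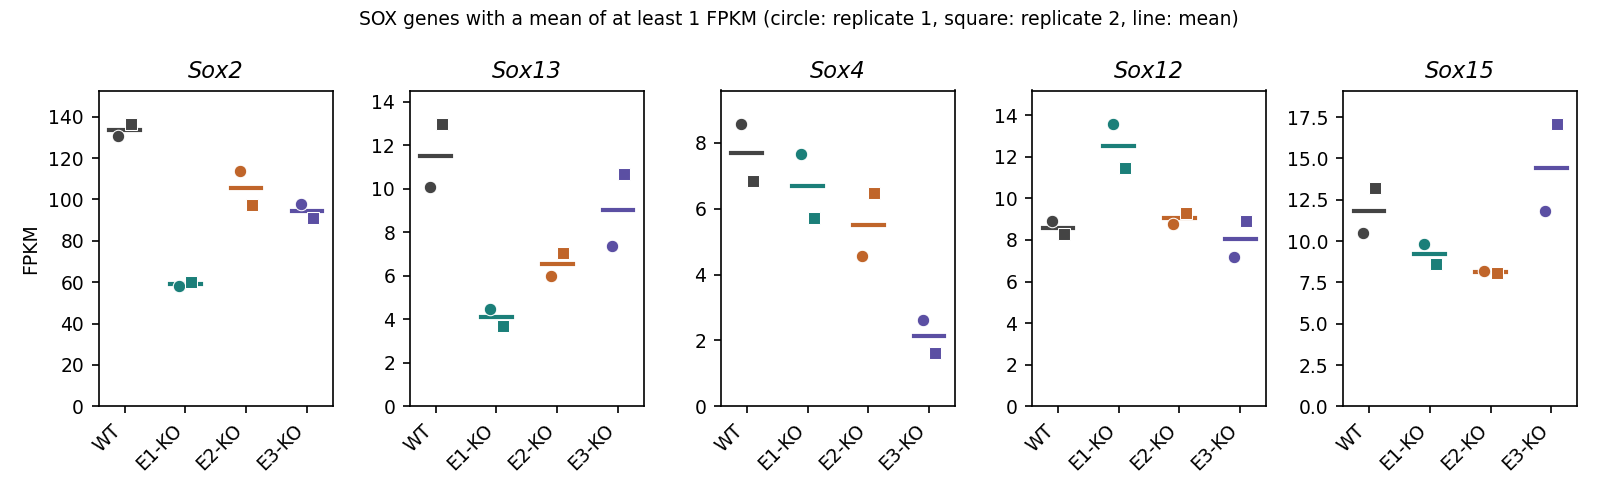
FPKM of the 5 SOX genes that averaged 1 FPKM or more, in the 2 replicates of each group (circle, replicate 1; square, replicate 2; line, mean; each axis starts at 0). Sox2 in all 6 knockout samples lies below both WT samples, Sox13 is lowest in E1-KO, Sox4 is lowest in E3-KO and Sox12 is highest in E1-KO.

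The sequences before the start sites of the 4 tested SOX genes that were called against WT in some knockout are shown here. The low SOX genes, which were called only in another fit described below, are not printed. They cover the 250 bases upstream of the RefSeq start site in GRCm38.p6, 5′ to 3′ in the direction of transcription, which is another build than the mm9 that the submitters' processing notes name. Capitals mark matches to the SOX core words ACAAAG or ACAATG, or to the octamer word ATGCAAAT bound by OCT factors, searched on both strands; the words do not overlap each other in these windows.
Sox2: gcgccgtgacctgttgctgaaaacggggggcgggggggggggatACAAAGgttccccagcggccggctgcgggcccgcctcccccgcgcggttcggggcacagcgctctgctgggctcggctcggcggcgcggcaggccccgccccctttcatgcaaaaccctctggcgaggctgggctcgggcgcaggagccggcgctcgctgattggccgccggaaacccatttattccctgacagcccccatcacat
Sox13: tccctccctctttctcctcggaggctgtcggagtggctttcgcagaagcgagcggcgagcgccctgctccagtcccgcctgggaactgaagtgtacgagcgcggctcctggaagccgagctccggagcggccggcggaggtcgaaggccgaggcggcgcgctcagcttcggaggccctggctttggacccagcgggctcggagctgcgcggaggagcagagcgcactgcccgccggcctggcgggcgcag
Sox4: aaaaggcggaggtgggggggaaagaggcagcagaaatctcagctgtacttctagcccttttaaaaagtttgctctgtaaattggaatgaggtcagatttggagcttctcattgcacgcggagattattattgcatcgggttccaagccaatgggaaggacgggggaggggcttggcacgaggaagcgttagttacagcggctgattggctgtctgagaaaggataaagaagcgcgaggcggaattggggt
Sox12: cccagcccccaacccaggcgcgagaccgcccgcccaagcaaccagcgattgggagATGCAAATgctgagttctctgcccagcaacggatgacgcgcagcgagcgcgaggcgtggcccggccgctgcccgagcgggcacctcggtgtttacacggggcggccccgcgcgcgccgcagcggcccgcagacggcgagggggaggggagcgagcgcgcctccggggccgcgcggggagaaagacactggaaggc
The Sox2 window is chr3:34649745-34649994 (plus strand), that of Sox13 is chr1:133424213-133424462 (minus strand), that of Sox4 is chr13:28953700-28953949 (minus strand) and that of Sox12 is chr2:152398047-152398296 (minus strand). The Sox2 window held an ACAAAG beginning 206 bases before the start site, a word found in 16.5% of all 32851 promoter windows of this length. In the Sox12 window an ATGCAAAT began 195 bases before the start, a word found in 1.6% of all windows. The windows of Sox13 and Sox4 held none of the 3 words, and ACAATG, found in 10.7% of all windows, was in none of the 4. The windows of Sox15, Sox11 and Sox21, which are not printed, also held none of the 3 words. Sox2, Sox13 and Sox12 have windows rich in G and C (72.0%, 72.4% and 74.4%), whereas that of Sox4 had 50.8%, near the median of 52.4% over all windows. A match describes the letters only, and the data hold no measure of binding.

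Sox2 itself was lower in every knockout sample than in both WT samples. Its level was 58.0 and 60.3 FPKM (E1-KO), 114 and 97.5 FPKM (E2-KO) and 97.7 and 91.0 FPKM (E3-KO). That left 44.3% of the WT mean (E1-KO), 79.1% (E2-KO) and 70.7% (E3-KO). The order from high to low was WT, E2-KO, E3-KO and E1-KO, and the samples of E2-KO and E3-KO overlapped. In E1-KO the difference from WT was -1.16 (95% interval -1.39 to -0.93, limma adjusted p = 0.000159). For E3-KO it was -0.50 (interval -0.73 to -0.26, adjusted p = 0.00482 by limma) beside a median of -0.151 over all tested genes, and with the samples scaled by their median ratios it was -0.32 (adjusted p = 0.024). E2-KO differed from WT by -0.34 (interval -0.57 to -0.11, limma adjusted p = 0.0312). This did not pass with median-ratio scaling (-0.26, adjusted p = 0.0643) or when WT replicate 1 (-0.37, adjusted p = 0.105), WT replicate 2 (-0.31, adjusted p = 0.171), E1-KO replicate 1 (-0.34, adjusted p = 0.0592), E1-KO replicate 2 (-0.34, adjusted p = 0.0589) or E2-KO replicate 2 (-0.23, adjusted p = 0.116) was left out of the limma fit. In GENCODE M21 the single exon of Sox2 lies inside an intron of the noncoding gene Sox2ot, on the same strand, so unspliced Sox2ot RNA could not be told apart from Sox2 RNA, and Sox2ot was not analysed here.

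Compared directly, the knockouts differed in Sox2. E2-KO was above E1-KO by 0.82 (interval 0.59 to 1.05, limma adjusted p = 0.0153), which did not pass without E1-KO replicate 1 (0.79, adjusted p = 0.144), without E1-KO replicate 2 (0.85, adjusted p = 0.112) or without E2-KO replicate 1 (0.71, adjusted p = 0.0756). That comparison called few genes, 0.796% of those tested (0.457% higher and 0.338% lower), and Sox2 was the only one of the 5 SOX genes among them. The gap from E1-KO up to E3-KO was 0.66 (interval 0.43 to 0.90, limma adjusted p = 0.0022). Between E3-KO and E2-KO the difference of -0.16 was not called (interval -0.39 to 0.08, limma adjusted p = 0.332).

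Sox3, the other subgroup B1 gene measured and a factor of neural progenitors, was present at a small fraction of the level of Sox2. Its values were 0.243 and 0.144 FPKM in WT, 0.435 and 0.403 (E1-KO), 0.561 and 0.732 (E2-KO) and 0.445 and 0.518 (E3-KO). All 6 knockout samples were above both WT samples, the opposite order to Sox2, and the mean was 2.16 times that of WT (E1-KO), 3.34 times (E2-KO) and 2.49 times (E3-KO). Per 100 FPKM of Sox2 this made 0.106 to 0.186 FPKM of Sox3 in WT and 0.455 to 0.75 in the knockouts. Sox3 was lowest, among the knockouts, in the line with the least Sox2, E1-KO, but the differences between knockouts were not called. In a fit over all identifiers E2-KO exceeded E1-KO by 0.21 (limma adjusted p = 0.307). E3-KO exceeded E1-KO by 0.06 in that fit (limma adjusted p = 0.655).

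Sox11, a subgroup C gene of neural and mesenchymal progenitors, was likewise low and likewise above WT in all 6 knockout samples. It stood at 0.107 and 0.0738 FPKM in WT, 0.608 and 0.331 (E1-KO), 0.540 and 0.672 (E2-KO) and 0.183 and 0.248 (E3-KO). The group means were 5.2 times WT (E1-KO), 6.7 times (E2-KO) and 2.38 times (E3-KO). Of the 8 SOX genes, Sox3 and Sox11 were the 2 with all knockout samples above both WT samples, where 12.1% of all 17152 identifiers showed this order, and Sox2 was the 1 with all below, where 21.2% did.

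Sox21, the repressor of subgroup B2, stood below WT in E1-KO and E2-KO. Its values were 0.705 and 1.04 FPKM in WT, 0.204 and 0.167 (E1-KO), 0.496 and 0.477 (E2-KO) and 1.04 and 0.989 (E3-KO). E1-KO and E2-KO did not overlap with WT or with each other, and E3-KO overlapped with WT. The E1-KO mean was 21.2% of the WT mean. Its exon overlaps a noncoding gene on the opposite strand (Gm4675), and whether counting used strand is not given in the sources used here.

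**Figure D2:**
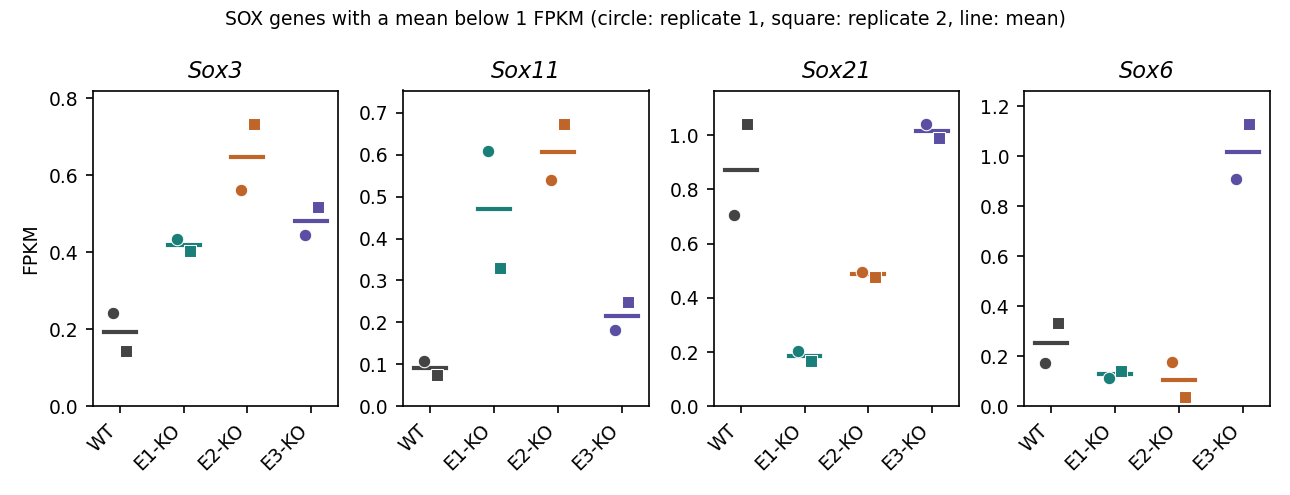
FPKM of Sox3, Sox11 and Sox21 and of the further family gene Sox6, all with a mean below 1 FPKM, in the 2 replicates of each group (circle, replicate 1; square, replicate 2; line, mean; each axis starts at 0). Sox3 and Sox11 are above WT in all 6 knockout samples, Sox21 is lowest in E1-KO and Sox6 is highest in E3-KO.

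These low genes were tested only in the alternative fit over all 17152 identifiers, in which 22.9% were called for E1-KO (8.95% higher and 14.0% lower), 21.2% for E2-KO (8.12% higher and 13.1% lower) and 29.2% for E3-KO (9.97% higher and 19.2% lower). Sox11 was called higher in E1-KO (0.42, limma adjusted p = 0.0257) and E2-KO (0.56, adjusted p = 0.0115) and not in E3-KO (0.16, adjusted p = 0.291). Sox3 was called higher in E2-KO (0.46, limma adjusted p = 0.0107) and E3-KO (0.31, adjusted p = 0.0279) and not in E1-KO (0.25, adjusted p = 0.0664). Sox21 was called lower in E1-KO (-0.65, limma adjusted p = 0.0065) and not in E2-KO (-0.33, adjusted p = 0.0594) or E3-KO (0.11, adjusted p = 0.453), and E3-KO exceeded E1-KO by 0.77 (adjusted p = 0.00512). Refits that left out 1 library, chosen after seeing the data, ended some of these calls. The Sox11 call in E1-KO was lost without WT replicate 1 (limma adjusted p = 0.114), WT replicate 2 (0.149), E1-KO replicate 1 (0.0938), E3-KO replicate 1 (0.0573) or E3-KO replicate 2 (0.0572). That in E2-KO was lost without WT replicate 1 (limma adjusted p = 0.077), WT replicate 2 (0.0961) or E2-KO replicate 2 (0.06). Sox3 lost its call in E2-KO without WT replicate 2 (limma adjusted p = 0.0756), and in E3-KO without either WT replicate, either E1-KO replicate or either E3-KO replicate (0.0521 to 0.134). The fall of Sox21 in E1-KO kept an adjusted p between 0.0177 and 0.0352 without each of the other 6 libraries but had 0.0537 without E1-KO replicate 1 and 0.0533 without E1-KO replicate 2. Beside these low genes of the neural lineage, the 7 neural markers found of a list of 8 (among them Pax6, Nes and Map2) had a summed level of 7.05 to 8.97 FPKM in WT, 11.8 to 13.5 (E1-KO), 9.46 to 10.2 (E2-KO) and 12.7 to 12.8 (E3-KO), with Neurog2 at 0 in every WT, E1-KO and E2-KO sample. Most of that sum was Nes, an intermediate filament gene singled out after its values were seen, at 6.11 and 4.98 FPKM in WT and 6.61 to 11.3 in the knockouts. Their part in the result was not tested, and in bulk RNA fewer cells of a type and less RNA per cell cannot be told apart.

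Sox4, a subgroup C gene active in many progenitor cells, was lower in E3-KO. It stood at 8.56 and 6.84 FPKM in WT, 7.67 and 5.72 (E1-KO), 4.55 and 6.48 (E2-KO) and 2.62 and 1.63 (E3-KO). Both E3-KO samples lay below every other sample, and their mean was 27.6% of that of WT. The difference was -1.49 (interval -1.98 to -0.99, limma adjusted p = 0.000937). In E1-KO (-0.18, interval -0.68 to 0.31, limma adjusted p = 0.535) and E2-KO (-0.43, interval -0.92 to 0.07, limma adjusted p = 0.156) Sox4 was not called. Directly compared, E3-KO was below E1-KO by a difference of -1.31 (limma adjusted p = 0.00312) and below E2-KO by -1.06 (limma adjusted p = 0.0138). The latter did not pass without E2-KO replicate 2 (-0.85, adjusted p = 0.0616) or without E3-KO replicate 2 (-0.83, adjusted p = 0.0726). Gm26735, a noncoding gene on the opposite strand, overlaps the Sox4 exon and was not analysed here.

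Sox12, the third gene of subgroup C, was the tested relative that rose. Its values were 8.92 and 8.28 FPKM in WT, 13.6 and 11.5 (E1-KO), 8.77 and 9.30 (E2-KO) and 7.19 and 8.92 (E3-KO). Both E1-KO samples were above all others, while the remaining groups overlapped with WT. The mean in E1-KO, the line with the least Sox2, was 1.46 times that of WT, a difference of 0.49 (interval 0.18 to 0.80, limma adjusted p = 0.0213). In FPKM that is from 8.60 to 12.5, against 133 to 59.2 for Sox2. The call was lost without WT replicate 1 (0.54, adjusted p = 0.0685), WT replicate 2 (0.44, adjusted p = 0.127) or E1-KO replicate 1 (0.38, adjusted p = 0.153), and it was kept under the other scalings (0.48 to 0.64). In E2-KO the difference was 0.06 (interval -0.25 to 0.37) and in E3-KO -0.09 (interval -0.40 to 0.22, with 0.06 under median-ratio scaling, 0.15 under quantile normalization and 0.05 without E3-KO replicate 1), neither of them called. E3-KO was below E1-KO by a difference of -0.58 (limma adjusted p = 0.0144), which did not pass without E1-KO replicate 1 (-0.47, adjusted p = 0.12) or E3-KO replicate 1 (-0.44, adjusted p = 0.0714).

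Sox13, a subgroup D factor that lacks a transactivation domain of its own and modulates other regulators, fell with Sox2 in 2 lines. Its values were 10.1 and 13.0 FPKM in WT, 4.49 and 3.71 (E1-KO), 6.01 and 7.05 (E2-KO) and 7.37 and 10.7 (E3-KO). The E1-KO and E2-KO samples were below both WT samples and did not overlap with each other, whereas E3-KO overlapped with WT. E1-KO kept 35.6% of the WT mean, a difference of -1.29 (interval -1.72 to -0.86, limma adjusted p = 0.00125). In E2-KO the difference was -0.73 (interval -1.15 to -0.30, limma adjusted p = 0.0169), which did not pass without WT replicate 2 (-0.56, adjusted p = 0.13) or E2-KO replicate 1 (-0.63, adjusted p = 0.0887). E3-KO was not called (-0.33, interval -0.76 to 0.10, limma adjusted p = 0.183). This value moved to -0.09 without E3-KO replicate 1, -0.57 (adjusted p = 0.0506) without E3-KO replicate 2, -0.16 without WT replicate 2, -0.50 without WT replicate 1 and -0.10 with quantile normalization. From low to high the order was E1-KO, E2-KO, E3-KO and WT, and neighbours in it were not called as different. E3-KO exceeded E1-KO by 0.96 (limma adjusted p = 0.00667), and by 0.85 (adjusted p = 0.0531) without E1-KO replicate 2.

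Sox15, a subgroup G gene known from embryonic stem cells and muscle precursors, was not called against WT in any knockout. It stood at 10.5 and 13.2 FPKM in WT, 9.82 and 8.62 (E1-KO), 8.20 and 8.05 (E2-KO) and 11.8 and 17.1 (E3-KO). The E1-KO and E2-KO samples lay below both WT samples and E3-KO overlapped with WT. The differences were -0.32 in E1-KO (interval -0.72 to 0.07, limma adjusted p = 0.174), -0.49 in E2-KO (interval -0.88 to -0.09, limma adjusted p = 0.0572) and 0.25 for E3-KO (interval -0.15 to 0.65, limma adjusted p = 0.275). That in E2-KO passed with E2-KO and WT alone (adjusted p = 0.036), with scaling that left out the 50 highest genes (-0.54, adjusted p = 0.0436) and when E3-KO replicate 1 (adjusted p = 0.0227) or E3-KO replicate 2 (adjusted p = 0.0233) was left out, and that in E3-KO passed, at 0.50 (adjusted p = 0.0414), without E3-KO replicate 1. Between knockouts, E3-KO exceeded E1-KO by 0.57 (limma adjusted p = 0.0405) and E2-KO by 0.74 (limma adjusted p = 0.0237). The replicates of E3-KO lay far apart, and without E3-KO replicate 2 these were 0.33 (adjusted p = 0.183) and 0.49 (adjusted p = 0.102). Over leaving out each library in turn, the former passed only without E3-KO replicate 1 (adjusted p = 0.0139) and had adjusted p-values of 0.0501 to 0.193 otherwise, and the latter failed also without E2-KO replicate 1 (adjusted p = 0.079) or E2-KO replicate 2 (adjusted p = 0.0713). Exons of Mpdu1, on the opposite strand, overlap those of Sox15. Mpdu1 was at 38.0 to 60.0 FPKM and itself lower in E1-KO (-0.58, limma adjusted p = 0.00989), and its share in the Sox15 values was not tested.

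**Figure D3:**
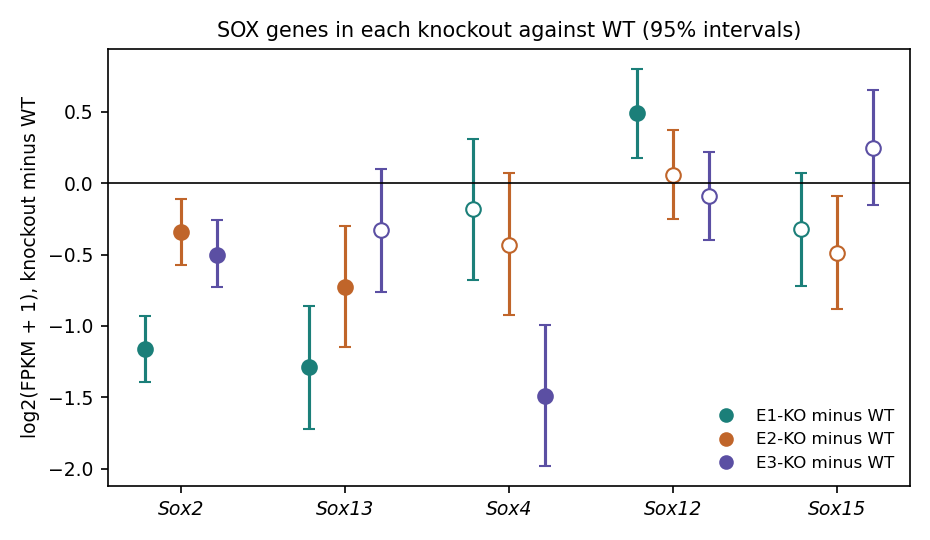
Difference of each knockout from WT on the log2(FPKM + 1) scale for the 5 tested SOX genes, with 95% intervals from the limma fit of all 8 samples. Filled points were called at an adjusted p-value under 0.05 and open points were not, and of the 7 filled points the single one above 0 is Sox12 in E1-KO (0.49).

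Compared with each other, all 5 tested SOX genes differed between E3-KO and E1-KO (3 higher and 2 lower in E3-KO), where 25.9% of all tested genes were called (9.42% higher and 16.4% lower). Of the genes called in it 36.4% were higher, and 52.7% with median-ratio scaling, 49.7% with quantile normalization or 48.7% with scaling that left out the 50 highest genes. Between E3-KO and E2-KO 2 were called, Sox4 lower and Sox15 higher, against 15.6% of all tested genes (5.5% higher and 10.1% lower). The higher share of those called was 35.3%, and 51.8%, 50.2% and 56.2% under these same scalings.

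Summed levels set the relatives beside Sox2 in amount. Over the 8 SOX genes the sum was 174 ± 6.46 FPKM in WT, 92.8 ± 2.92 (E1-KO), 136 ± 8.78 (E2-KO) and 130 ± 1.86 (E3-KO), as mean ± SD with n = 2 each. Sox2 fell by 74.3 FPKM (E1-KO), 27.9 (E2-KO) and 39.1 (E3-KO) relative to WT. The other 7 genes together were not higher in the knockouts, with 40.8 ± 2.41 FPKM in WT, 33.6 ± 4.50 (E1-KO), 30.9 ± 2.57 (E2-KO) and 35.3 ± 6.65 (E3-KO), as mean ± SD with n = 2 each. One E3-KO sample (40.0 FPKM) lay within the WT range of 39.1 to 42.5 and the other 5 knockout samples (29.1 to 36.8) lay below it. The share of Sox2 in the sum was 76.9% and 76.2% in WT, 61.2% and 66.5% (E1-KO), 79.6% and 74.9% (E2-KO) and 76.1% and 69.4% (E3-KO). In E1-KO the share was below that of every other sample.

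**Figure D4:**
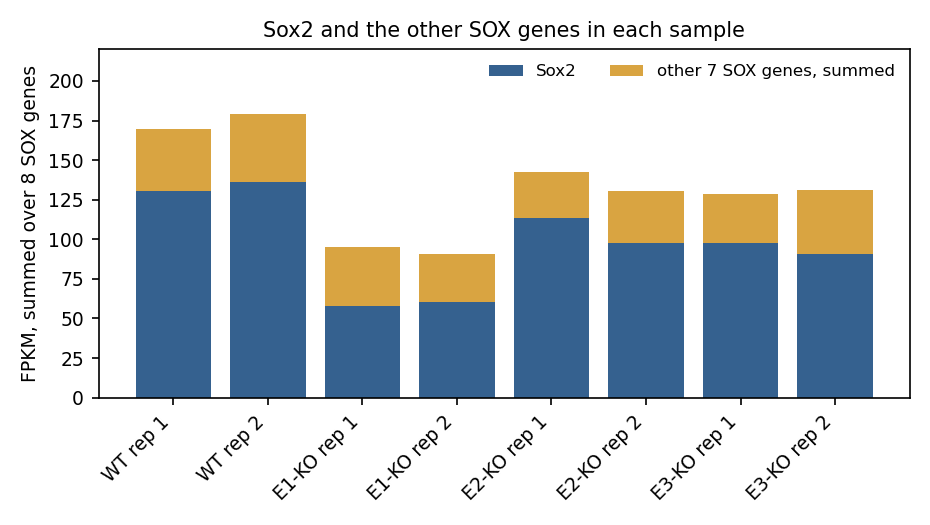
Sox2 (lower part of each bar) and the sum of the other 7 SOX genes (upper part) in FPKM, for each of the 8 samples. The bars of E1-KO are the shortest (94.8 and 90.7 FPKM against 170 and 179 in WT), and the upper parts lie between 29.1 and 42.5 FPKM.

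Of 11 further family genes, 9 were found in the files, all with a mean below 1 FPKM. Sox6, a subgroup D gene of cartilage and muscle differentiation, was the one of these that reached 1 FPKM in a sample. It stood at 0.173 and 0.333 FPKM in WT, 0.113 and 0.143 (E1-KO), 0.177 and 0.0361 (E2-KO) and 0.908 and 1.13 (E3-KO). Both E3-KO samples were above all others, by a difference from WT of 0.69 in the fit over all identifiers (limma adjusted p = 0.00404, and 0.00967 to 0.0387 without each library in turn). Sox5, Sox7, Sox8, Sox9, Sox10, Sox17, Sox18 and Sox30 ranged from 0 to 0.658 FPKM, the latter for Sox18 in E2-KO replicate 2. Of these 8, Sox18, an endothelial factor, was called higher in E2-KO (0.49, limma adjusted p = 0.0369) with a pseudocount of 1 and not with 0.1, and its WT samples were at 0 and 0.188 FPKM. Sox17, a factor of endoderm, stood at 0.296 and 0.125 FPKM in WT, 0.205 and 0.209 (E1-KO), 0.348 and 0.275 (E2-KO) and 0.641 and 0.359 (E3-KO). Both E3-KO samples were the highest, at a mean 2.38 times that of WT, and the difference was not called in the fit over all identifiers (0.31, limma adjusted p = 0.075). Sox9 was likewise highest in both E3-KO samples (0.213 and 0.350 FPKM), at a mean 3.04 times that of WT. Its difference was not called either (0.23, limma adjusted p = 0.0646). Of 8 endoderm markers 6 were found, with a summed level of 29.4 to 30.6 FPKM in WT, 5.15 to 5.42 (E1-KO), 11.6 to 13.7 (E2-KO) and 11.7 to 12.9 (E3-KO). That sum was mostly Lama1, a laminin chain, at 28.8 ± 0.899 FPKM in WT and 9.37 ± 0.478 in E3-KO (SD, n = 2 each). Gata6, an endoderm regulator, had the opposite order in these groups, with 1.04 and 1.15 FPKM in WT and 3.72 and 1.76 in E3-KO. Cer1 and Afp were at 0 in both WT samples and close to 0 in E3-KO (0.0539 and 0.0835, 0.0878 and 0.0341 FPKM). Foxa2 was at 0.0346 and 0 FPKM in WT and at 0 in both E3-KO samples. Foxa1 stood at 0.131 and 0.0676 FPKM in WT and 0.0553 and 0.107 in E3-KO. Single markers were described after their values were seen. Their part in the Sox17 level was not tested.

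A set of 3 gene lists describes the setting in which SOX2 acts. Of 15 factors that work with SOX2, 14 were tested. In E1-KO 3 were higher and 5 lower, in E2-KO 4 were higher and 5 lower, and in E3-KO 2 were higher and 6 lower, with median differences of 0.05, -0.03 and -0.14 beside the -0.064, -0.077 and -0.151 of all tested genes. Over all tested genes the shares called higher and lower were 15.0% and 23.1% (E1-KO), 14.2% and 22.1% (E2-KO) and 13.8% and 30.9% (E3-KO). Klf4, a Krüppel-like factor of naive pluripotency, fell in all 3 lines (-0.97, -1.17 and -1.08, limma adjusted p between 0.000182 and 0.000434). Prdm14, a repressor that guards the naive state, also fell in all 3 (-0.81, -0.48 and -0.55, limma adjusted p = 0.0011, 0.0122 and 0.00501), though in E2-KO not without WT replicate 2 (-0.40, adjusted p = 0.105) or E2-KO replicate 1 (-0.40, adjusted p = 0.0631), and in E3-KO not without WT replicate 2 (-0.47, adjusted p = 0.0536). Pax6, a partner of SOX2 in the eye and neural tube, rose in E1-KO by 1.24 (limma adjusted p = 0.00275), from 0.315 and 0.555 FPKM to 2.50 and 2.28. In E2-KO its difference was 0.66 (limma adjusted p = 0.0411, and 0.0581 in a fit blocked on the replicate number), and leaving out either WT replicate, either E1-KO replicate or E2-KO replicate 1 gave adjusted p-values of 0.0593 to 0.233. Nanog stood at 467 and 450 FPKM in WT, 508 and 522 (E1-KO), 524 and 618 (E2-KO) and 435 and 373 (E3-KO). Pou5f1 stood at 360 and 382 FPKM in WT and at 428 to 553 in the knockouts. All 6 knockout samples of Pou5f1 were above both WT samples, an order that 12.1% of all identifiers showed.

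Of 9 genes known for a composite OCT-SOX element, 8 were tested. In E1-KO 1 was higher and 1 lower, in E2-KO 5 were higher, and in E3-KO 3 were higher, with median differences of 0.18, 0.43 and 0.23. All tested genes had medians of -0.064, -0.077 and -0.151, with 15.0%, 14.2% and 13.8% called higher and 23.1%, 22.1% and 30.9% lower. Utf1, a chromatin factor of pluripotent cells, rose in all 3 lines (1.23, 1.09 and 0.66, limma adjusted p = 0.00242, 0.00463 and 0.0297), and in E3-KO it did not pass without WT replicate 1 (0.60, adjusted p = 0.131), WT replicate 2 (0.72, adjusted p = 0.0863) or E3-KO replicate 2 (0.51, adjusted p = 0.158). Spp1, which encodes osteopontin, rose in E2-KO (0.78, limma adjusted p = 0.00236) and E3-KO (0.61, adjusted p = 0.00504) and had a difference of 0.16 in E1-KO (adjusted p = 0.344). Zscan10, a zinc finger factor of embryonic stem cells, rose in E3-KO (0.60, limma adjusted p = 0.00334) and in E2-KO (0.43, adjusted p = 0.0193), where the call was lost without WT replicate 1 (0.38, adjusted p = 0.122), WT replicate 2 (0.49, adjusted p = 0.0671) or E2-KO replicate 1 (0.33, adjusted p = 0.0929). The genes named from this list, those with the largest differences, all rose, and the 1 called lower in E1-KO is not among them. Fgf4, also of this list, stood at 62.3 and 68.2 FPKM in WT and at 44.0 to 59.1 in the knockouts. Its 6 knockout samples were all below both WT samples, an order that 21.2% of all identifiers showed. Lefty1, the untested gene, has an identifier that the files list more than once.

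Enzymes that modify or degrade SOX2 protein made the last list, and all 5 were tested. In E1-KO 2 were higher and 1 lower, in E2-KO 1 was higher and 1 lower, and in E3-KO 2 were higher and 2 lower, so that 3, 2 and 4 of 5 were called where 38.2%, 36.3% and 44.7% of all tested genes were. Carm1, an arginine methyltransferase, was lower in E3-KO (-0.71, limma adjusted p = 0.00478), with differences of 0.09 and -0.24 in E1-KO and E2-KO that were not called. Setd7, a lysine methyltransferase, was higher in E3-KO (0.72, limma adjusted p = 0.0204), which did not pass without WT replicate 1 (0.52, adjusted p = 0.144) or E3-KO replicate 2 (0.51, adjusted p = 0.127). Otud7b, a deubiquitinase, was lower in E1-KO, E2-KO and E3-KO (-0.46, -0.52 and -0.39, limma adjusted p = 0.0229, 0.0138 and 0.0361), and with quantile normalization none of these passed (-0.31, -0.37 and -0.16, adjusted p = 0.0975, 0.0621 and 0.365). All 3 calls also ended without WT replicate 1 or WT replicate 2, that in E1-KO without either E1-KO replicate, that in E2-KO without E2-KO replicate 1 and that in E3-KO without E3-KO replicate 1 (adjusted p between 0.0543 and 0.168).

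The genes whose pattern lay nearest to Sox2 were found by the root-mean-square difference from Sox2 of the log2 ratio to the WT mean, over the 6 knockout samples and the 6392 other genes averaging at least 10 FPKM. The nearest was Gss, the enzyme of the last step of glutathione synthesis, at a distance of 0.121, with means of 38.3 FPKM in WT, 17.4 (E1-KO), 27.1 (E2-KO) and 27.8 (E3-KO). It was followed by Pnpla6 (0.157), a lysophospholipase, Nfatc2ip (0.168), Impact (0.172), a regulator of translation, and Cox5a (0.203), a subunit of cytochrome c oxidase. Sox15, the one other SOX gene averaging at least 10 FPKM, was at a distance of 0.675, which placed it at 2539 of the 6392. Sox13, Sox12 and Sox4 averaged less (7.79, 9.55 and 5.51 FPKM) and were not placed, so their likeness to Sox2 was not measured in this way.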

How the data were processed

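Total RNA libraries, 8 in all and 2 per group, were sequenced as paired reads of 150 bases, per the labels' protocols. Trimmomatic 0.36, TopHat2 2.0.12, Cufflinks 2.2.1 and the build mm9 are named in the submitters' processing notes; the annotation, strand setting and any scaling between samples are not given in the sources used here. The authors deposited 1 value per gene and sample, taken as FPKM from the named tool and the values, since no header states the unit.

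Of 17812 identifiers, 660 were listed more than once (1622 of 18774 rows) and were left out, since the files carry no positions to choose between rows; no SOX gene was among them. A gene name table gave symbols for 17262 of the 17812. The 10936 genes averaging at least 1 FPKM were fitted on log2(FPKM + 1) with limma 3.58.1 in R 4.3.3 (lmFit, contrasts.fit, eBayes with a trend), all 8 samples together with the group as the only term and 4 residual degrees of freedom, 6 contrasts, two-sided, adjusted by Benjamini-Hochberg over all tested genes of a contrast. The script was tested on simulated data. Depth was not known, so no counting intervals could be given, and relative depths rest on 8.5% to 22.3% of low ratios. Figures were drawn with matplotlib 3.10.9.

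The SOX genes and gene lists were chosen with earlier results of these data known. Named from each list were at most 3 genes with the largest difference among those called, and the 5 genes nearest to Sox2. Alternatives were other scalings (quantile, median ratio, without the 50 highest genes), a pseudocount of 0.1, other filters, a replicate block, limma without trend, the 2 groups alone, summed repeats and leaving out each library. A further pair, which tested all genes with a pseudocount of 0.1 or without each library, was chosen after seeing the data.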

Additional observations from a re-analysis of the deposited data

Results flagged for a closer look

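Several SOX genes differed between the knockouts when these were compared directly with each other by limma. Sox2 was higher in E2-KO than in E1-KO by 0.82 (adjusted p = 0.0153) and higher in E3-KO than in E1-KO by 0.66 (adjusted p = 0.0022). Sox4 had a difference of -1.31 between E3-KO and E1-KO (adjusted p = 0.00312) and of -1.06 between E3-KO and E2-KO (adjusted p = 0.0138), so its order among the knockouts was not that of Sox2. E3-KO minus E1-KO was -0.58 for Sox12 (adjusted p = 0.0144) and for Sox13 it was 0.96 (adjusted p = 0.00667). Sox15 was higher in E3-KO than in E1-KO by 0.57 (adjusted p = 0.0405) and than in E2-KO by 0.74 (adjusted p = 0.0237). Each knockout is a group of its own, so enhancer, clone and culture cannot be told apart in these differences.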

How the results depend on the processing

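Against WT the difference of Sox2 kept its sign in all alternatives. Leaving out each library gave -1.191 to -1.129 (E1-KO), -0.448 to -0.23 (E2-KO) and -0.547 to -0.445 (E3-KO). The call in E2-KO was lost with median-ratio scaling (-0.257), and with a difference of -0.339 in limma without trend (adjusted p = 0.0511) or with E2-KO and WT alone (adjusted p = 0.0563). The number of SOX genes called against WT was 5 in E1-KO and 4 in E2-KO with all genes above 0, at either pseudocount, since the 3 low genes then entered. In E2-KO it was 1 with median-ratio scaling and 1 in limma without trend. Leaving out each library gave 2 to 3 in E1-KO, 0 to 3 in E2-KO, 2 to 3 in E3-KO, 0 to 1 between E2-KO and E1-KO, 3 to 4 between E3-KO and E1-KO and 0 to 2 between E3-KO and E2-KO. Between E2-KO and E1-KO no SOX gene was called with all genes above 0 or with these 2 groups alone (0 each; Sox2 had adjusted p-values of 0.056 and 0.0525). Between E3-KO and E2-KO 1 was called with all genes above 0 and a pseudocount of 0.1, and 1 with these groups alone. Of the values for single genes under alternatives, 1140 stayed on the same side of the threshold as in the main fit, 73 lost and 65 gained a call. Low genes outside the main fit, among them Sox3, Sox11 and Sox21, were counted as not called in it. For these genes the counts do not show calls lost from the fit over all identifiers. The sign changed in 9 of the values, none of which was called in either fit, 3 of these for Sox12 in E3-KO. The replicate numbers come from the titles, and deviations of equally numbered samples were uncorrelated (mean r of 0.005, range -0.044 to 0.095 over 6 pairings of groups). In the replicate block fit Sox2 had the same differences with adjusted p-values of 0.00051 (E1-KO), 0.0432 (E2-KO) and 0.00843 (E3-KO), and the number of SOX genes called was unchanged in the 6 contrasts. Unknown depth limits the low genes, for which no counting error could be given.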
